A study of Homo sapiens with 6 samples.

Results

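The genes described here were 10 members of the NRF2 axis, the glutathione system and the defence against ferroptosis: NFE2L2, KEAP1, NQO1, GCLC, GCLM, TXNRD1, SRXN1, SLC7A11, GPX4 and ACSL4. They were taken by symbol from a table of 58735 genes, each symbol matched 1 gene, and all 10 were among the 16322 genes with enough reads to be tested. The study compared LN229 cells, an established human glioblastoma line, carrying the genotype HSD52 overexpression (HSD52_OE, 3 libraries) with LN229 cells whose genotype is given as WT (control, 3 libraries). HSD52 is a long non-coding RNA gene. No other treatment, time point or allele is given for either group. The labels are silent on whether control cells received a vector and on whether replicates were grown as separate cultures, so the p-values rest on the scatter among these 6 libraries, part of which may be technical.

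NRF2, the product of NFE2L2, is a transcription factor that KEAP1 holds in the cytoplasm and hands to a ubiquitin ligase for degradation. When electrophiles or oxidants modify KEAP1, NRF2 builds up, pairs with small MAF proteins on antioxidant response elements, and raises genes for quinone reduction, glutathione synthesis and the thioredoxin system. Ferroptosis is an iron-dependent cell death driven by peroxidised membrane phospholipids: GPX4 reduces those peroxides with glutathione, SLC7A11 imports the cystine from which glutathione is made, and ACSL4 loads membranes with the polyunsaturated fatty acids that peroxidise.

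Library totals lay between 17777157 and 18917790 counts. HSD52 itself had 7 to 12 counts in the control libraries and 1252 to 1336 in the HSD52_OE libraries. Genes with at least 1 count numbered 22855 to 23545 in the control and 26359 to 26755 in the HSD52_OE libraries. Control libraries differed more among themselves (chi-square per degree of freedom 15.1 to 18.6 between pairs) than HSD52_OE libraries did (2.23 to 3.51). Among glioma and glial markers, 3 rose and 3 fell of 10 tested, with VIM, SOX2, OLIG2 and GFAP detected in both groups. Their log2 fold changes ran from -3.56 for SOX9, at 11, 33 and 14 counts in control and 2, 3 and 0 in HSD52_OE, to 0.59 for GFAP. Of the fibroblast markers 9 of 10 fell and 1 rose, and their summed level was 152 to 257 CPM (counts per 1000000, after TMM scaling) in control and 67.8 to 73.4 in HSD52_OE. Epithelial markers had 3 of 6 genes tested, all of which rose (sum 122 to 141 against 175 to 188 CPM), with CDH1 at 0. Myeloid (2 of 8 tested), endothelial (2 of 6) and lymphocyte (0 of 6) markers each summed to at most 3.19 CPM in any library, and 1 of these genes was called, in the lower direction. A further list held 6 long non-coding RNAs (MALAT1, NEAT1, KCNQ1OT1, MEG3, SNHG1 and GAS5), read as a possible sign of RNA preparation. Of these 5 were tested and 4 rose, and their sum went from 287 to 359 CPM in control to 803 to 1055 CPM in HSD52_OE. Whether RNA preparation differed between the groups was not tested. The fibroblast, epithelial and long non-coding RNA sums did not overlap between the groups, and the myeloid and endothelial sums did. Sums of the glioma and glial markers did not overlap either, at 3051 to 3371 CPM in control and 2924 to 2994 in HSD52_OE. The same held for the very low lymphocyte sums, at 0.228 to 0.278 CPM in control and 0.305 to 0.753 in HSD52_OE. The part of these RNAs in the results that follow was not tested.

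Across the 10 genes, NQO1, SRXN1, GPX4, GCLM and TXNRD1 were lower in HSD52_OE cells, SLC7A11 and ACSL4 were higher, and NFE2L2, KEAP1 and GCLC did not pass the test. The sizes ran from 0.375-fold for SRXN1 to 2.07-fold for SLC7A11. A gene was called when its p-value from edgeR's quasi-likelihood test, adjusted by Benjamini-Hochberg over all 16322 genes, was at most 0.05. By that rule 2 members were higher, against 25.0% of all genes tested, and 5 were lower, against 25.6%. Of the 13155 protein-coding genes tested, 21.4% were higher and 30.1% lower, and all 10 members are protein-coding. In 8 of the 10 members the 3 HSD52_OE levels did not overlap the 3 control levels, which was also so for 58.9% of all genes tested. Against a fold of 1.5, 1 member was higher (SLC7A11; 8.41% of all genes tested) and 2 were lower (NQO1 and SRXN1; 4.45%). The median log2 fold change of the members was -0.09, and that of all genes tested was 0.01. With library totals as the scaling the members' median turned to 0.04, with 4 genes higher and 4 lower, and with upper-quartile factors to 0.02, again with 4 and 4; the medians of all genes tested were then 0.13 and 0.12. Since these were bulk libraries, fewer cells expressing a gene and less RNA per cell cannot be told apart.

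**Figure D1:**
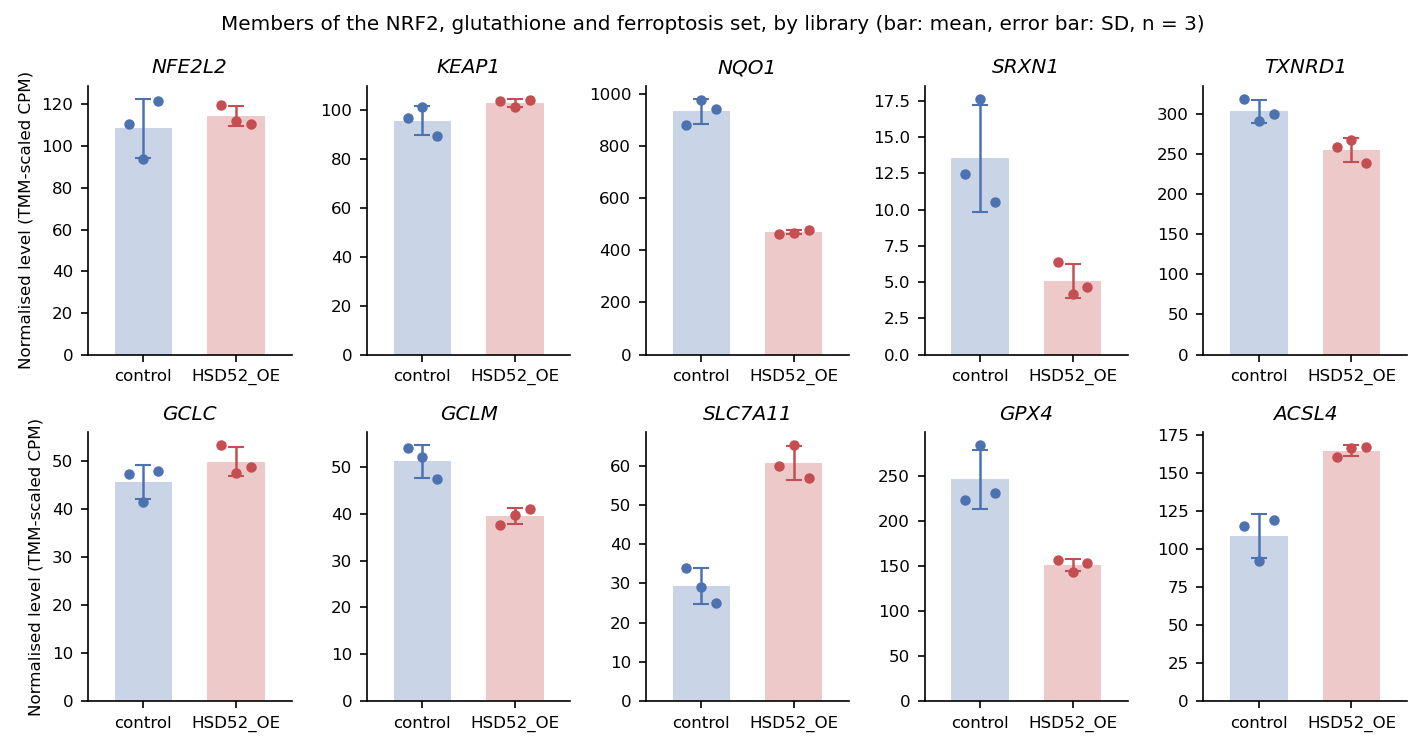
Normalised level (vertical axis, TMM-scaled CPM, each panel from 0) of each of the 10 genes in the control and HSD52_OE libraries; points are libraries, bars are means and error bars are SD (n = 3 a group). All 3 HSD52_OE points lie below all control points for NQO1, SRXN1, GPX4, GCLM and TXNRD1 and above them for SLC7A11, ACSL4 and KEAP1, while those of NFE2L2 and GCLC overlap.

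**Figure D2:**
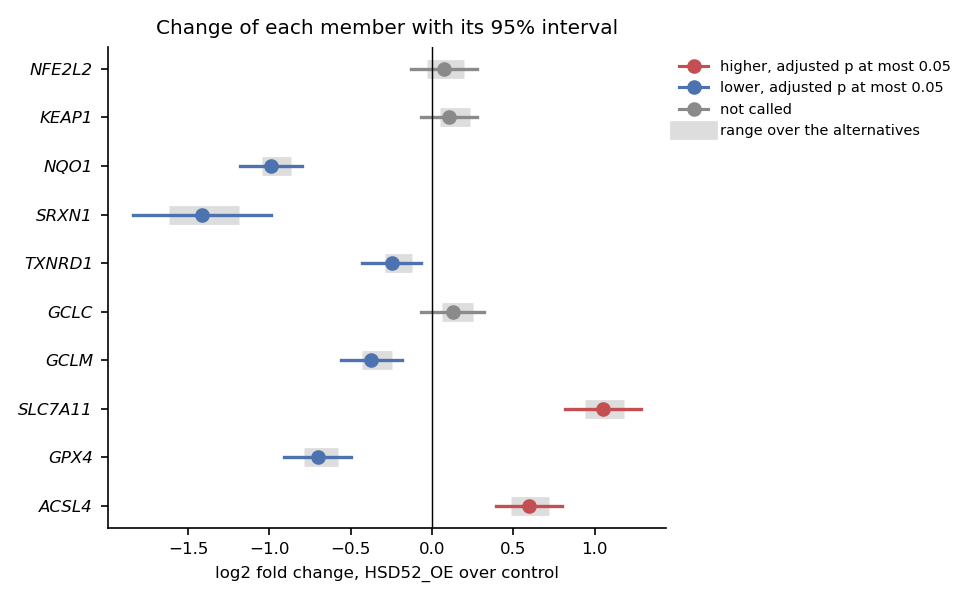
Log2 fold change of HSD52_OE over control (horizontal axis) for each of the 10 genes, with its 95% interval; grey bands give the range over the alternative analyses. SRXN1 (-1.42) and NQO1 (-0.99) lie farthest to the left and SLC7A11 (1.05) farthest to the right.

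Neither the transcription factor nor its sensor passed the test at the RNA level. NFE2L2 (ENSG00000116044, chromosome 2, 177227595 to 177392697, minus strand, hg38 as for all coordinates here) stood at 110.5, 93.7 and 122 CPM in control libraries 1 to 3, and at 120, 112 and 111 CPM in HSD52_OE libraries 1 to 3. The lowest and the highest of the 6 levels were both control libraries. Its log2 fold change was 0.07 ± 0.10 (SE; adjusted p = 0.544), a ratio of 1.05 with a 95% interval of 0.914 to 1.21. AGPS, on the other strand, starts 165049 bases above the lower coordinate of NFE2L2, so it overlaps only the far end of the annotated NFE2L2 body. Its 9204 counts over the 6 libraries, beside 12299 for NFE2L2, are those of the whole AGPS gene. The strand setting of the counting was not given, so how reads in the overlap were assigned is not known.

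KEAP1 (ENSG00000079999, chromosome 19, 10486120 to 10503741, minus strand), the adaptor that targets NRF2 for degradation, had 96.7, 101 and 89.3 CPM in control and 104, 101 and 104 CPM in HSD52_OE. The groups came close without overlapping. The log2 fold change of 0.11 ± 0.08 did not pass the test (adjusted p = 0.287; ratio 1.08, 95% interval 0.956 to 1.21). With library totals alone as the scaling it did, at 0.23 with adjusted p = 0.0217, and with upper-quartile factors at 0.22 with adjusted p = 0.0338. The ratio of NFE2L2 to KEAP1 counts within a library was 1.14, 0.927 and 1.36 in control and 1.15, 1.11 and 1.06 in HSD52_OE, and these overlapped (exact permutation test, p = 0.9).

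Of 14 regulators and partners of NRF2 outside the 10 genes, 1 rose and 4 fell (28.6%, against 25.6% of all genes tested). With library totals and with upper-quartile factors 3 rose and 4 fell. Their median log2 fold change was -0.02, which turned to 0.11 with library totals, 0.09 with upper-quartile factors and 0.04 with protein-coding genes alone. The median of all genes tested was 0.01 with TMM. In the other settings, in the same order, it was 0.13, 0.12 and 0.002. The one that rose was BACH1, the repressor that competes with NRF2 for the same DNA elements, from 40.5 ± 4.47 to 55.1 ± 2.96 CPM (SD, n = 3), a log2 change of 0.44 ± 0.10 (adjusted p = 0.00134). The count ratio of BACH1 to NFE2L2 was 0.381, 0.378 and 0.361 in control and 0.449, 0.521 and 0.479 in HSD52_OE, with every HSD52_OE library above every control library. Its fold was 1.29, and the exact permutation test gave p = 0.1, the smallest that 3 against 3 libraries allow (0.15 adjusted over the 6 ratios computed).

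Among the regulators that fell, NFE2L3, a relative of NFE2L2 that binds the same kind of element, dropped from 90.1 ± 19.2 to 36.8 ± 1.89 CPM (log2 fold change -1.29 ± 0.13, adjusted p = 1.00e-06). PGAM5, a mitochondrial phosphatase bound by KEAP1, went from 92.2 ± 13.4 to 56.5 ± 1.07 CPM (-0.71 ± 0.10). Both ubiquitin ligase components on the list that passed the test were lower. CUL3, the scaffold that works with KEAP1, changed by -0.41 ± 0.08 (adjusted p = 5.83e-04; it falls outside the rule for naming genes and was chosen after its value was seen). BTRC, which acts on NRF2 by a KEAP1-independent route, changed by -0.43 ± 0.10 (adjusted p = 0.00308). The small MAF partners MAFF, MAFG and MAFK had log2 fold changes between -0.10 and 0.01 and did not pass the test.

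Of the NRF2 target enzymes among the 10 genes, NQO1 changed most in absolute level. NQO1 (ENSG00000181019, chromosome 16, 69706996 to 69726951, minus strand), which reduces quinones by hydride transfer, had 880.4, 975 and 945 CPM in control and 463, 468 and 479 CPM in HSD52_OE. The lowest control library was well above the highest HSD52_OE library, and the HSD52_OE values were tightly grouped (SD 8.22 CPM against 48.5 in control). HSD52_OE over control gave a log2 fold change of -0.99 ± 0.09 (95% interval -1.18 to -0.80; adjusted p = 5.05e-07), a ratio of 0.503. Of all genes tested, 3.68% had a lower fold change.

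SRXN1 (ENSG00000271303, chromosome 20, 646615 to 653370, minus strand), sulfiredoxin, which repairs over-oxidised peroxiredoxins, was the least abundant of the 10 in CPM, with 190 to 310 counts in control libraries and 80 to 119 in HSD52_OE libraries. Its levels were 12.4, 17.6 and 10.5 CPM in control and 6.40, 4.16 and 4.67 CPM in HSD52_OE. No HSD52_OE library reached the lowest control library, although the control libraries themselves spread widely (SD 3.68 CPM). On the log2 scale the change was -1.42 ± 0.20 (95% interval -1.84 to -0.99; adjusted p = 3.42e-05), a ratio of 0.375.

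TXNRD1 (ENSG00000198431, chromosome 12, 104215779 to 104350305, plus strand), the cytosolic thioredoxin reductase and a selenoprotein, had 319, 291 and 300.0 CPM in control and 259, 268 and 239 CPM in HSD52_OE. The groups did not overlap, and the gap between them was narrow. The log2 difference was -0.25 ± 0.09 (adjusted p = 0.0244; ratio 0.842, 95% interval 0.742 to 0.955). The call was lost with library totals (-0.12, adjusted p = 0.231), with upper-quartile factors (adjusted p = 0.180), with protein-coding genes alone (0.0726), and without HSD52_OE replicate 1 (0.0797), 2 (0.0586) or 3 (0.140). A processed pseudogene on the same strand, RPL18AP3, lies within TXNRD1 and held 8451 counts beside 30650, and it fell by 0.71 on the log2 scale (adjusted p = 9.29e-05). The value of TXNRD1 is uncertain where reads could be given to either.

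The wider set held 24 NRF2 target enzymes of quinone, carbonyl, haem, iron and NADPH metabolism, none of them among the 10. Of the 24, 17 were lower (70.8%, against 25.6% of all genes tested) and 2 higher (8.33%, against 25.0%). The shares of protein-coding genes were 30.1% lower and 21.4% higher. Against a fold of 1.5, 1 of the 24 was lower and 1 higher, beside 4.45% and 8.41% of all genes tested. The median log2 fold change of the set was -0.44. With library totals 14 were lower and the median was -0.32. The ferritin heavy chain FTH1, which stores iron in the ferric form, went from 948 ± 49.6 to 388 ± 26.3 CPM (-1.29 ± 0.09, adjusted p = 7.42e-08). Its partner FTL changed by -0.63 ± 0.10, from 1498 ± 166 to 968 ± 9.83 CPM.

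HMOX1, haem oxygenase, was lower at 12.7 ± 1.48 against 18.7 ± 1.07 CPM (-0.56 ± 0.12, adjusted p = 0.00114). The exporter ABCC3 changed by -1.01 ± 0.23 and the epoxide hydrolase EPHX1 by -0.74 ± 0.12. The pentose phosphate enzymes TKT, TALDO1 and PGD were lower, with log2 fold changes of -0.73 ± 0.09 for TKT, -0.37 ± 0.08 for TALDO1 and -0.28 ± 0.08 for PGD. These 3 and FTL fall outside the rule for naming genes and were singled out after their values were seen. The 2 that rose were both weakly expressed. The exporter ABCC2 went from 1.24 ± 0.364 to 3.55 ± 0.849 CPM (1.52 ± 0.28, adjusted p = 3.58e-04), and AKR1B10, an aldo-keto reductase also named after its value was seen, from 0.229 ± 0.301 to 0.906 ± 0.102 CPM. AKR1B10 had 2, 10 and 0 counts in control and 19, 16 and 17 in HSD52_OE, and its log2 fold change of 1.96 became 3.83 without control replicate 2. It lost its call without control replicate 1 (adjusted p = 0.0809) or 3 (0.0553). PGD lost its call with library totals (adjusted p = 0.124), with upper-quartile factors (0.0971), and without HSD52_OE replicate 1 (0.0759) or 2 (0.0511).

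Of the 2 subunits of glutamate-cysteine ligase, the rate-limiting enzyme of glutathione synthesis, GCLM was lower in HSD52_OE and GCLC did not pass the test. GCLC (ENSG00000001084, chromosome 6, 53497341 to 53616970, minus strand), the catalytic subunit, had 47.2, 41.6 and 48.0 CPM in control and 53.3, 47.6 and 48.7 CPM in HSD52_OE. The groups overlapped, since HSD52_OE library 2 lay below control library 3. Its log2 fold change was 0.13 ± 0.09 (adjusted p = 0.253; ratio 1.09, 95% interval 0.956 to 1.25), and it passed the test with library totals (0.25, adjusted p = 0.0367) and upper-quartile factors (0.24, adjusted p = 0.0413).

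GCLM (ENSG00000023909, chromosome 1, 93885205 to 93909456, minus strand), the modifier subunit that improves the catalytic subunit's kinetics, had 54.1, 52.1 and 47.3 CPM in control and 37.7, 39.8 and 41.0 CPM in HSD52_OE. All HSD52_OE libraries were below all control libraries. On the log2 scale the change was -0.37 ± 0.09 (95% interval -0.56 to -0.18; adjusted p = 0.00260), a ratio of 0.772. Within libraries the count ratio of GCLM to GCLC was 1.14, 1.25 and 0.986 in control and 0.707, 0.836 and 0.843 in HSD52_OE. That ratio does not depend on library scaling. It was 0.706-fold in HSD52_OE and did not overlap between the groups (exact permutation test, p = 0.1, the smallest possible; 0.15 adjusted over 6 ratios).

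GCLM and TXNRD1 were the only genes of the 9 with a promoter entry whose window, 250 bases before to 50 after the RefSeq start, held the antioxidant response element core TGACNNNGC on either strand, and both were lower in HSD52_OE. These 2 are 22.2% of the 9. NQO1, SRXN1 and GPX4 were lower too, and their windows held no match. SLC7A11 had no entry. The core was present in 13.3% of all 35116 promoters of that length and in 15.0% of the 11010 that belonged to tested genes. Among pathway genes outside the 10, 24 of 127 promoters (18.9%) held it. The core begins with TGAC, which the AP-1 motif can also hold, a match is not a bound site, and windows without a match lack only these letters. The 250 bases upstream of both genes are shown 5′ to 3′ on the gene's strand because they carry the matches, in capitals (RefSeq, GRCh38.p14). The GCLM stretch is chr1:93909431-93909680 on the minus strand, and its match, 34 bases upstream of the start, reads TGACTAAGC on the opposite strand.
GCLM: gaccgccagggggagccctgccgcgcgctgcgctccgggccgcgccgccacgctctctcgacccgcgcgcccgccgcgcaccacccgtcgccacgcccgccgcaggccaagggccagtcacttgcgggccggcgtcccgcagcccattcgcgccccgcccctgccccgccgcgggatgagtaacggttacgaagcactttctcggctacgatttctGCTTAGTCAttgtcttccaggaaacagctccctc
The TXNRD1 stretch is chr12:104215529-104215778 on the plus strand. Its first match, TGACTTCGC, begins 99 bases upstream, and the second begins 8 bases upstream, reads TGACGGAGC on the opposite strand and runs over the start, so that 8 of its 9 bases are shown.
TXNRD1: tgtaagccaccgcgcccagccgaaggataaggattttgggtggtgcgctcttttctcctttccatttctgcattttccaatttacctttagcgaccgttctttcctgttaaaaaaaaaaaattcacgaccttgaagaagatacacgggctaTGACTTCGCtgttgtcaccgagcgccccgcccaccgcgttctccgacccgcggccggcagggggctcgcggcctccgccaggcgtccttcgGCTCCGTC

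Of the 10 genes, the one with the highest fold change was the cystine transporter. SLC7A11 (ENSG00000151012, chromosome 4, 138164097 to 138242349, minus strand), the transport subunit of the cystine-glutamate exchanger, had 34.0, 28.97 and 24.9 CPM in control and 60.1, 65.2 and 56.9 CPM in HSD52_OE. The lowest HSD52_OE library was far above the highest control library. The log2 fold change was 1.05 ± 0.11 (95% interval 0.82 to 1.28; adjusted p = 1.98e-06), a ratio of 2.07, and 89.8% of all genes tested had a lower fold change. An antisense gene, SLC7A11-AS1, held 50 counts, 0.994% of the count of SLC7A11.

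SLC3A2, the heavy chain that carries SLC7A11 to the membrane, did not pass the test, at 349.6 ± 94.3 CPM in control and 349 ± 11.2 CPM in HSD52_OE (adjusted p = 0.989). Without control replicate 3 it was called lower, at -0.22 with adjusted p = 0.0176. The count ratio of SLC7A11 to SLC3A2 was 0.0836, 0.0722 and 0.103 in control and 0.168, 0.184 and 0.169 in HSD52_OE, a 2.03-fold difference with no overlap (exact permutation test, p = 0.1, the smallest possible; 0.15 adjusted over 6 ratios).

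**Figure D3:**
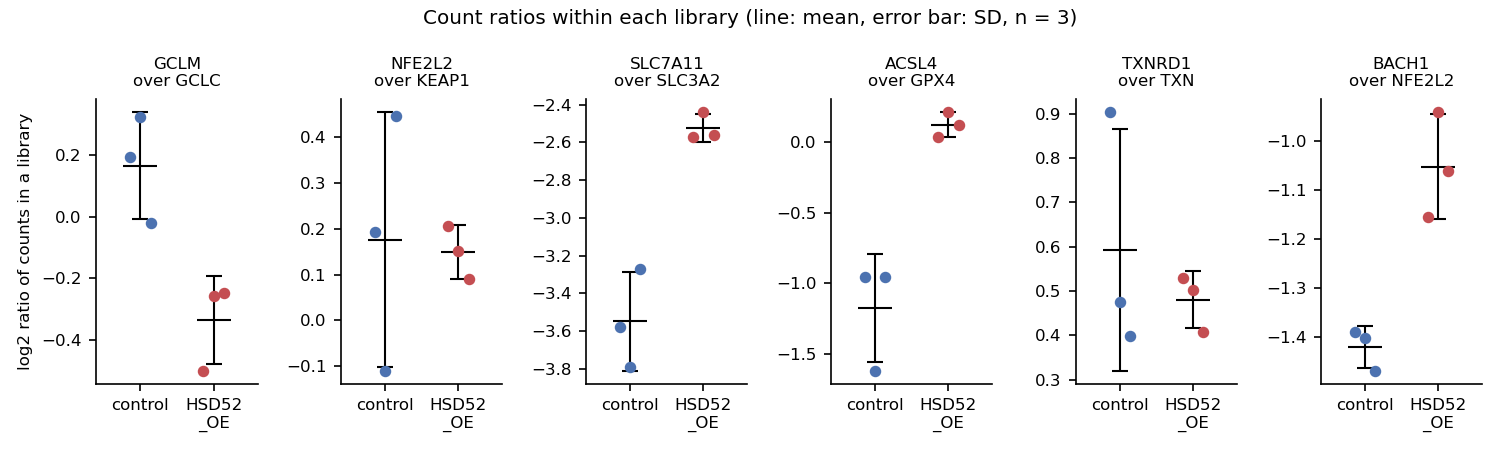
Log2 ratio of the counts of 2 genes within each library (vertical axis, separate for each panel) for 6 gene pairs in control and HSD52_OE; points are libraries, lines are means and error bars are SD (n = 3). The groups do not overlap for GCLM over GCLC, SLC7A11 over SLC3A2, ACSL4 over GPX4 and BACH1 over NFE2L2, and overlap for NFE2L2 over KEAP1 and TXNRD1 over TXN.

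Of 16 further genes of glutathione synthesis, recycling and breakdown, 3 rose (18.75%, against 25.0% of all genes tested) and 6 fell (37.5%, against 25.6%). Their median log2 fold change was -0.21. With library totals or upper-quartile factors 3 rose and 4 fell, with medians of -0.09 and -0.10. Both NADP-dependent isocitrate dehydrogenases, another source of NADPH, were lower: IDH2 went from 104 ± 2.84 to 60.7 ± 2.35 CPM (-0.77 ± 0.08, adjusted p = 1.87e-06) and IDH1 from 98.0 ± 16.2 to 57.6 ± 3.36 CPM (-0.77 ± 0.11). The neutral amino acid carrier SLC1A4 changed by -0.78 ± 0.11. Glutathione synthetase, GSS, which adds glycine in the last step, did not pass the test (0.07 ± 0.09, adjusted p = 0.498). Glutathione reductase, GSR, passed narrowly at -0.21 ± 0.08 (adjusted p = 0.0429) and lost its call in 10 of the 16 alternative settings. OPLAH, which recovers glutamate from oxoproline, was higher (0.39 ± 0.15, adjusted p = 0.0354), and it lost its call without control replicate 3 (0.128) or HSD52_OE replicate 1 (0.0631), 2 (0.0909) or 3 (0.102). OPLAH was not the gene of the list that rose most, since the highest log2 fold change was 1.34. Against a fold of 1.5, 1 gene of the list was higher, which was not OPLAH, and 1 was lower.

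The glutathione-using enzymes other than GPX4 numbered 24, of which 21 were tested. Of these 2 rose (9.52%, against 25.0% of all genes tested) and 9 fell (42.9%, against 25.6%), and the median change was -0.23 (log2). With library totals 6 rose and 7 fell (median -0.11), and with upper-quartile factors 4 and 8. MGST1, a membrane-bound transferase that also reduces lipid peroxides, went from 16.3 ± 1.59 to 7.88 ± 0.215 CPM (-1.04 ± 0.13, adjusted p = 8.02e-06). MGST3 changed by -0.70 ± 0.10 and the glutaredoxin GLRX by -0.64 ± 0.13. The transferases that rose were GSTZ1, of tyrosine breakdown, from 15.8 ± 1.28 to 28.1 ± 2.65 CPM (0.83 ± 0.11, adjusted p = 2.13e-05), and GSTK1 (0.39 ± 0.08).

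The thioredoxin and peroxiredoxin system around TXNRD1 and SRXN1 was read as 17 genes. Of these 8 fell (47.1%, against 25.6% of all genes tested) and 2 rose (11.8%, against 25.0%), with a median of -0.25 (log2). With library totals 5 fell and 3 rose (median -0.13), and likewise with upper-quartile factors (median -0.15). TXN, the thioredoxin that TXNRD1 reduces, did not pass the test (202 ± 29.1 against 183 ± 5.40 CPM, adjusted p = 0.233), and the count ratio of TXNRD1 to TXN overlapped between the groups (exact permutation test, p = 0.9). Without control replicate 1, TXN was called lower (adjusted p = 0.0117). PRDX6, a peroxiredoxin that acts on phospholipid peroxides, went from 287 ± 21.8 to 196 ± 12.3 CPM (-0.55 ± 0.09, adjusted p = 1.19e-04). SOD2, the mitochondrial superoxide dismutase, changed by -0.94 ± 0.18 (adjusted p = 0.00156) and TXNIP, which binds and inhibits thioredoxin, by -0.61 ± 0.13. The small thioredoxin-like TXNDC17 (0.53 ± 0.09) and the mitochondrial TXN2 (0.28 ± 0.08) were higher, the call of TXN2 being lost without HSD52_OE replicate 2 (adjusted p = 0.0524) or 3 (0.0604).

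**Figure D4:**
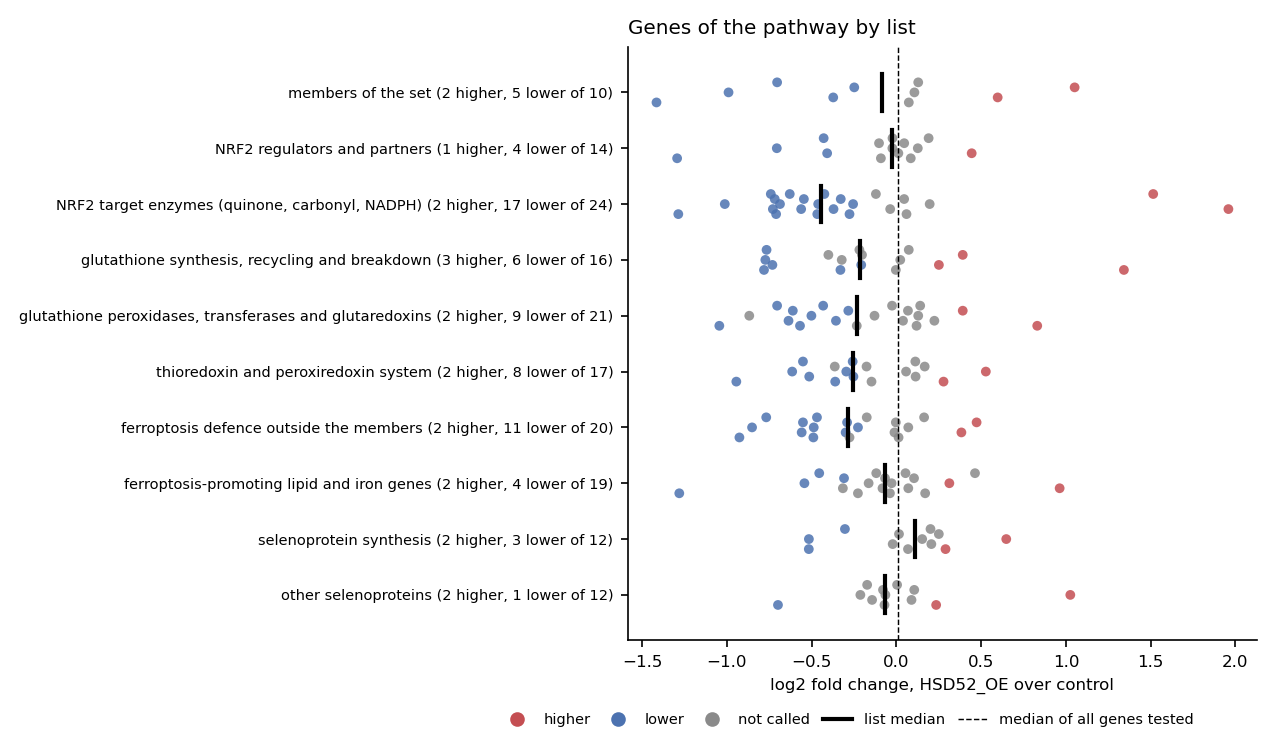
Log2 fold change of HSD52_OE over control (horizontal axis) for every tested gene of the 10 and of the 9 pathway lists, 1 row a list; red points were called higher, blue lower and grey not called, the thick line is the list median and the dashed line the median of all genes tested. The NRF2 target enzymes have the lowest list median (-0.44), and the selenoprotein synthesis genes a median of 0.11.

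The ferroptosis genes of the set, GPX4 and ACSL4, changed in opposite directions. GPX4 (ENSG00000167468, chromosome 19, 1103926 to 1106791, plus strand), the selenoprotein that reduces phospholipid peroxides, had 223, 284 and 231 CPM in control and 156, 143 and 153 CPM in HSD52_OE. No library of one group fell among those of the other, and control library 2 was the highest. The log2 fold change was -0.70 ± 0.10 (95% interval -0.91 to -0.50; adjusted p = 2.96e-05), a ratio of 0.614. Against a fold of 1.5 it did not pass (adjusted p = 0.206).

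ACSL4 (ENSG00000068366, chromosome X, 109624244 to 109733403, minus strand), the acyl-CoA synthetase that activates arachidonate and adrenate, had 115, 92.3 and 119 CPM in control and 160.5, 167 and 167 CPM in HSD52_OE. The HSD52_OE libraries were close together and all above the highest control library. The log2 fold change was 0.60 ± 0.10 (95% interval 0.39 to 0.80; adjusted p = 1.11e-04), a ratio of 1.51, and it did not pass against a fold of 1.5 (adjusted p = 0.746). The count ratio of ACSL4 to GPX4 was 0.517, 0.326 and 0.515 in control and 1.03, 1.16 and 1.09 in HSD52_OE. This 2.47-fold difference showed no overlap (exact permutation test, p = 0.1, the smallest possible; 0.15 adjusted over 6 ratios).

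Most tested genes around GPX4 on chromosome 19 were lower as well. Of 64 tested genes that start within 1 Mb of GPX4, 48 fell (75.0%) and 5 rose. Their median was -0.62 (log2), and 26 of the 64 had a lower fold change than GPX4. The nearest by start were SBNO2 (-0.72), POLR2E (-0.66) and ARHGAP45 (-0.78). Around SRXN1 10 of 18 neighbours fell (55.6%; median -0.37), and none had a lower fold change than SRXN1. Around NQO1 15 of 31 fell (48.4%; median -0.23), and 1 had a lower fold change than NQO1. With library totals 8 of the 31 fell and 7 rose, against 15 and 3 with TMM.

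SLC7A11 had 4 tested neighbours, of which 2 fell and none rose, and all 4 lay below it. Only 1 gene within 1 Mb of SLC7A11 was called lower with library totals, with upper-quartile factors, or without control replicate 1 or HSD52_OE replicate 1. Without HSD52_OE replicate 3, 1 gene within 1 Mb was called higher. That fit tested 16705 genes in place of 16322, so this gene need not be 1 of the 4. ACSL4 had 5, of which 2 rose and none fell, with a median of 0.22. The 2 were NXT2 (0.45) and RTL9 (1.02), named after their values were seen. Among the other members, 19 of 56 neighbours of KEAP1 were lower and 6 higher, 6 of 13 of GCLM were lower and 3 higher, and 5 of 16 of TXNRD1 were lower and 2 higher. Of 10 neighbours of GCLC 3 were lower and 2 higher, and of 12 of NFE2L2 1 was lower and 3 were higher. Over all genes tested these shares were 25.6% lower and 25.0% higher. The neighbouring genes were read from the same fit and are a description, with no test.

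**Figure D5:**
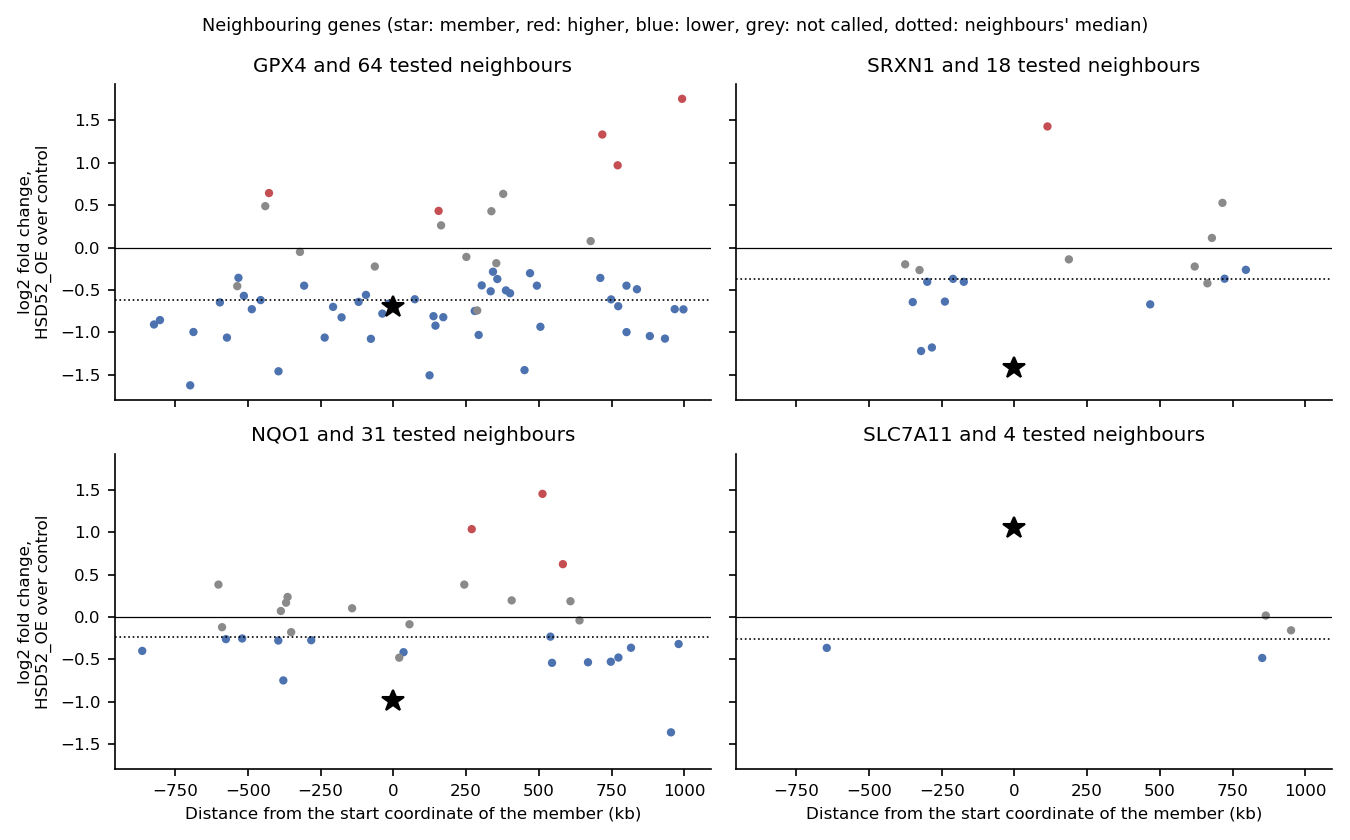
Log2 fold change of HSD52_OE over control (vertical axis) of the tested genes that start within 1 Mb of GPX4, SRXN1, NQO1 and SLC7A11, against distance in kb from the member's start coordinate (horizontal axis); the star is the member, red points rose, blue fell and grey were not called, and the dotted line is the neighbours' median. GPX4 lies near its neighbours' median of -0.62, while SRXN1 and SLC7A11 lie outside the range of theirs.

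Of 20 genes of ferroptosis defence outside the 10, 11 fell (55.0%, against 25.6% of all genes tested and 30.1% of protein-coding genes). Another 2 rose, against 25.0% of all genes tested and 21.4% of protein-coding genes. Against a fold of 1.5, 1 of the 20 was lower and 0 were higher, beside 4.45% and 8.41% of all genes tested. The median of the list was -0.28 on the log2 scale. With library totals 8 fell and the median was -0.16. GCH1, which starts the synthesis of the radical-trapping tetrahydrobiopterin, went from 3.73 ± 0.791 to 1.96 ± 0.684 CPM (-0.93 ± 0.26, adjusted p = 0.00795). HSPB1, a small heat shock protein, changed by -0.85 ± 0.11 (adjusted p = 1.15e-05). SCD, the desaturase that makes monounsaturated fatty acids, changed by -0.77 ± 0.18 (adjusted p = 0.00616), a call that was lost without control replicate 3 (adjusted p = 0.0790). AIFM2, also called FSP1, which keeps ubiquinone reduced, did not pass the test (39.5 ± 3.23 against 39.2 ± 1.35 CPM, adjusted p = 0.930). The genes that rose were PDSS2, of ubiquinone synthesis (0.47 ± 0.11), and FANCD2, a DNA repair protein (0.38 ± 0.08).

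Lipid and iron genes that favour ferroptosis, beside ACSL4, numbered 24, and 19 were tested. Of these 4 fell (21.1%, against 25.6% of all genes tested) and 2 rose (10.5%, against 25.0%). Their median of -0.07 became 0.06 with library totals, when 3 rose and 3 fell. With that scaling the median of all genes tested went from 0.01 to 0.13. LPCAT3, which inserts the acyl chains that ACSL4 activates, did not pass the test (19.9 ± 2.58 against 20.9 ± 0.130 CPM, adjusted p = 0.626). SAT1, the spermidine acetyltransferase, rose from 68.0 ± 11.6 to 133 ± 16.6 CPM (0.96 ± 0.12, adjusted p = 8.64e-06), and FAR1, of ether lipid synthesis, by 0.31 ± 0.09. FADS2, which desaturates polyunsaturated fatty acids, went from 104 ± 32.2 to 42.6 ± 0.192 CPM (-1.28 ± 0.18, adjusted p = 3.97e-04). The oxidoreductase POR changed by -0.54 ± 0.12 and TMEM189, of plasmalogen synthesis, by -0.46 ± 0.08. The lipoxygenases ALOX5, ALOX15, ALOX15B and ALOXE3 had too few reads to be tested.

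GPX4 and TXNRD1 are selenoproteins, so the machinery that inserts selenocysteine was read as well. Of 12 genes of selenoprotein synthesis, 3 fell (25.0%, against 25.6% of all genes tested) and 2 rose (16.7%, against 25.0%), with a median of 0.11. With library totals 5 rose and 1 fell (median 0.23). EEFSEC, the elongation factor for selenocysteine, changed by -0.52 ± 0.11 (adjusted p = 0.00137), the selenocysteine lyase SCLY by -0.52 ± 0.17 and TRNAU1AP by -0.30 ± 0.11. PSTK, the kinase that acts on the charged transfer RNA, changed by 0.65 ± 0.16 and SECISBP2, which binds the selenocysteine insertion element, by 0.29 ± 0.09. SCLY lost its call with library totals (adjusted p = 0.0653), with upper-quartile factors (0.0537) and without HSD52_OE replicate 1 (0.0727). TRNAU1AP lost it with library totals (0.183), upper-quartile factors (0.140) and protein-coding genes alone (0.0650). It also did so without control replicate 2 (0.0794) or HSD52_OE replicate 1 (0.0831) or 2 (0.126). SECISBP2 lost it with no low-count filter (0.0514) and without HSD52_OE replicate 1 (0.101) or 2 (0.0566). Against a fold of 1.5, 0 genes of the list were called. Of 14 other selenoproteins 12 were tested. Of these 1 fell (8.33%, against 25.6% of all genes tested), 2 rose (16.7%, against 25.0%) and 9 were not called. SELENOW fell, from 97.1 ± 14.2 to 59.8 ± 3.30 CPM (-0.70 ± 0.10, adjusted p = 5.14e-05), while SELENOI (0.23 ± 0.09) and DIO2 (1.03, named after its value was seen) rose. SELENOI lost its call with no low-count filter (adjusted p = 0.125) and without control replicate 2 (0.103) or HSD52_OE replicate 1 (0.152), 2 (0.109) or 3 (0.0653). DIO2 lost its call without control replicate 1 (0.0763) or 3 (0.0800) or HSD52_OE replicate 1 (0.0896) or 2 (0.0594). Against a fold of 1.5, 0 of these 12 genes were called. The median of the 12 other selenoproteins was -0.07, and 0.06 with library totals. For all genes tested the median was 0.01 with TMM and 0.13 with library totals.

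Over all 9 lists together, 163 genes of which 153 were tested, 18 were higher (11.8%) and 62 lower (40.5%), with a median log2 fold change of -0.16. For all genes tested the shares were 25.0% higher and 25.6% lower, and for protein-coding genes 21.4% and 30.1%. With library totals the lists had 29 genes higher and 46 lower, with a median of -0.04. Of all 16322 genes tested, 5337 were then higher and 2933 lower, with a median of 0.13.

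Compared per length (CPM per kb), NQO1 was the most abundant of the 10 in control at 287 ± 14.9, followed by GPX4 at 122 ± 16.3, TXNRD1 at 45.2 ± 2.14 and KEAP1 at 25.4 ± 1.59. NFE2L2 at 18.2 ± 2.36 and ACSL4 at 17.0 ± 2.25 overlapped. GCLM followed at 9.44 ± 0.636, GCLC at 5.27 ± 0.407 and SRXN1 at 5.02 ± 1.36 overlapped, and SLC7A11 was last at 3.04 ± 0.473. In HSD52_OE the first 4 kept their order, with NQO1 at 144 ± 2.53, GPX4 at 74.8 ± 3.31, TXNRD1 at 38.1 ± 2.18 and KEAP1 at 27.4 ± 0.423 CPM per kb. ACSL4 at 25.7 ± 0.574 then stood above NFE2L2 at 19.1 ± 0.813 without overlap. GCLM stood at 7.29 ± 0.314, SLC7A11 at 6.30 ± 0.437 overlapped GCLC at 5.77 ± 0.348, and SRXN1 came last at 1.88 ± 0.436.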

How the data were processed

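Messenger RNA selected on poly-T beads was sequenced from 3 control and 3 HSD52_OE libraries of LN229 cells, and groups were taken from the titles. The deposited values were whole-number counts per gene, not normalized by the authors. Per the submitters' processing notes, the authors used CASAVA, HISAT2 2.0.5 with hg38, and featureCounts 1.5.0-p3; which annotation, read filters and strand setting they used was not given in the sources used here. All 58735 gene identifiers are in GENCODE 29, and 58724 have the same start and end there.

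Genes were filtered with filterByExpr, scaled by TMM and tested with edgeR 4.0.16 (robust quasi-likelihood fit on group alone, 2-sided; R 4.3.3, limma 3.58.1), with Benjamini-Hochberg adjustment over 16322 genes at 0.05. A fold change is HSD52_OE over control. CPM are TMM-scaled, given as mean ± SD over 3 libraries; CPM per kb divides by the gene length in the deposited table. Count ratios were taken of the counts as deposited, with nothing added, and their log2 values were tested by exact 2-sided permutation. Adding 0.5 to both counts was an alternative setting for the ratios. The scripts were tested on simulated data.

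The 10 members and all lists were chosen with earlier results of these data known, so list counts are descriptions. Besides HSD52, the members and 9 fixed partners, the named genes are, per pathway list, up to 3 with the highest and 3 with the lowest fold change among called genes whose groups did not overlap and whose 6 libraries averaged 2 CPM or more; exceptions are marked, and some genes that met the rule are not reported here. Alternatives were other scalings and filters, DESeq2 1.42.0, limma-voom, a replicate block, a test against a fold of 1.5, protein-coding genes alone, and leaving out each library.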

Additional observations from a re-analysis of the deposited data

How the results depend on the processing

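Of the 10 members, SLC7A11, NQO1 and SRXN1 kept their direction and call in all 16 alternative settings, and GCLM, GPX4 and ACSL4 in all but the test against a fold of 1.5. That test called 1373 genes higher and 726 lower, 1 and 2 members, 4 and 6 pathway genes, and 16 of the 64 neighbours of GPX4 lower. With library totals 5337 genes were higher and 2933 lower, and with upper-quartile factors 5179 and 3102, against 4086 and 4173 with TMM; 4 members were then higher in both, and 29 pathway genes with library totals. Leaving out 1 library gave 3373 to 4303 genes higher and 3313 to 4529 lower, 2 members higher and 4 to 5 lower, 12 to 18 pathway genes higher and 51 to 68 lower, and 44 to 51 lower neighbours of GPX4. The log2 differences of the ratios then ranged from -0.60 to -0.42 (GCLM over GCLC), -0.17 to 0.11 (NFE2L2 over KEAP1), 0.90 to 1.16 (SLC7A11 over SLC3A2), 1.08 to 1.41 (ACSL4 over GPX4), -0.21 to 0.04 (TXNRD1 over TXN) and 0.31 to 0.42 (BACH1 over NFE2L2).

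The values that changed sign had not passed the test. SLC3A2 became 0.13 with library totals, 0.11 with upper-quartile factors, 0.023 with a filter of 1 CPM, 0.036 with limma-voom, 0.035 with the replicate block and 0.056 with protein-coding genes alone. AIFM2 became 0.11 with library totals, 0.098 with upper-quartile factors, 0.014 with the 1 CPM filter and 0.047 with protein-coding genes alone. Leaving out 1 library gave log2 fold changes of -0.030 (without control replicate 2) to 0.16 for NFE2L2, -0.22 to 0.10 for SLC3A2, -0.084 to 0.026 (without control replicate 2) for AIFM2 and -0.028 (without control replicate 3) to 0.15 for LPCAT3. The ratio of NFE2L2 to KEAP1 turned to 0.11 without control replicate 3 and to 0.0022 without HSD52_OE replicate 3. That of TXNRD1 to TXN turned to 0.043 without control replicate 1. The cause was not tested.

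Replicate numbers are shared between the groups, but the labels do not say that a number marks a shared culture, day or batch. Libraries were therefore not treated as paired. Deviations of same-numbered libraries correlated at 0.038, 0.031 and 0.033, and those of differently numbered libraries at -0.022 to -0.013. Each library thus correlated best with its own number, weakly. Whether the number marks a shared batch was not tested. With a replicate block 4210 genes were higher and 4226 lower, 2 members higher and 5 lower, and 18 pathway genes higher and 64 lower.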
